A study of Ovis aries with 32 samples.

Results

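Dietary succinic acid was compared with the unsupplemented diet in the sheep libraries labelled pituitary, which make up 8 of the 32 RNA-seq libraries of the series. Membership follows the labels: 4 libraries carry the tissue label pituitary with the diet label CON and 4 carry it with SA. All sheep were male Tan sheep (Ovis aries, 3 months old), housed singly with free access to feed and water, and were followed through 10 days of adaptation and 60 days of feeding. CON sheep ate a basal pellet, and SA sheep ate that pellet with succinic acid mixed in at 1% of dry matter (0% in CON). In the last week before slaughter both groups were given feed at 4 times of day. Values are TPM (a transcript's share, scaled for its length), a unit scaled within each library that keeps no trace of sequencing depth. How deeply a library was sequenced is therefore unknown. Libraries are named here by diet and replicate number (CON 1 to 4, SA 1 to 4). The sampling text gives 4 sheep per diet, and in such bulk tissue fewer cells of a type and less RNA per cell cannot be told apart.

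The anterior lobe of the pituitary makes growth hormone, prolactin, ACTH, thyrotropin and the gonadotropins, and the posterior lobe holds the endings of hypothalamic neurons that store vasopressin and oxytocin, wrapped by glia called pituicytes. Succinate is an intermediate of the tricarboxylic acid cycle: succinyl-CoA ligase makes it and succinate dehydrogenase, which is also complex II of the respiratory chain, oxidises it. Outside the cell it binds the receptor SUCNR1, and inside the cell high succinate inhibits the prolyl hydroxylases that mark HIF1A for breakdown.

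The tissue label went against its defining genes in every one of the 8 libraries. CGA and FSHB, which encode the shared alpha subunit and the follicle-stimulating beta subunit of the glycoprotein hormones, were listed at 0 in all 8. PRL (prolactin) was between 0 and 0.17 TPM in 7 libraries and 1.79 TPM in SA 4. Of the 22 anterior pituitary genes with a row, 12 were under 1 TPM in every library, including the lineage factors PITX1, LHX3, TBX19 and NR5A1. The tested genes of highest mean in that list were SCG2 (36.9 to 545 TPM), CHGA (71.3 to 291), CHGB (25.0 to 171) and PCSK1 (3.23 to 27.0). In the hypothalamus-labelled CON libraries these averaged 156, 296, 273 and 2.05 TPM. The posterior lobe markers RAX and NKX2-1 were listed at 0 throughout, and AVP ranged from 0 to 1.82 TPM. These were 2 of 9 posterior lobe and pituicyte genes with a row under 1 TPM in every library, RAX and NKX2-1 alone. Other genes of that list were present, with LHX2 at 2.24 to 10.4 TPM, COL25A1 at 2.20 to 16.8 TPM and SRPX2 at 10.2 to 31.45 TPM. POMC, the precursor of ACTH, was measurable but low, at 2.66 to 4.97 TPM. Genes of neural tissue were high instead: SNAP25 (a synaptic fusion protein) ranged from 372 to 1404 TPM and GFAP (astrocytes) from 2998 to 9450 TPM. Some transcription factors of dorsal midbrain and thalamus were also present. Of the 19 genes of a thalamus and midbrain list with a row, 5 were under 1 TPM in every library. OTX2, shown beside them, stands in the choroid plexus and ependyma list. SOX14 ranged from 1.71 to 17.1 TPM, LHX9 from 2.26 to 24.2 TPM, GATA3 from 1.56 to 16.2 TPM and OTX2 from 5.95 to 61.1 TPM. In the 8 libraries labelled hypothalamus the highest values of these 4 genes were 0, 0.01, 0.25 and 1.90 TPM. The libraries are therefore called pituitary-labelled, and no result is read as one of hormone-secreting cells.

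**Figure D1:**
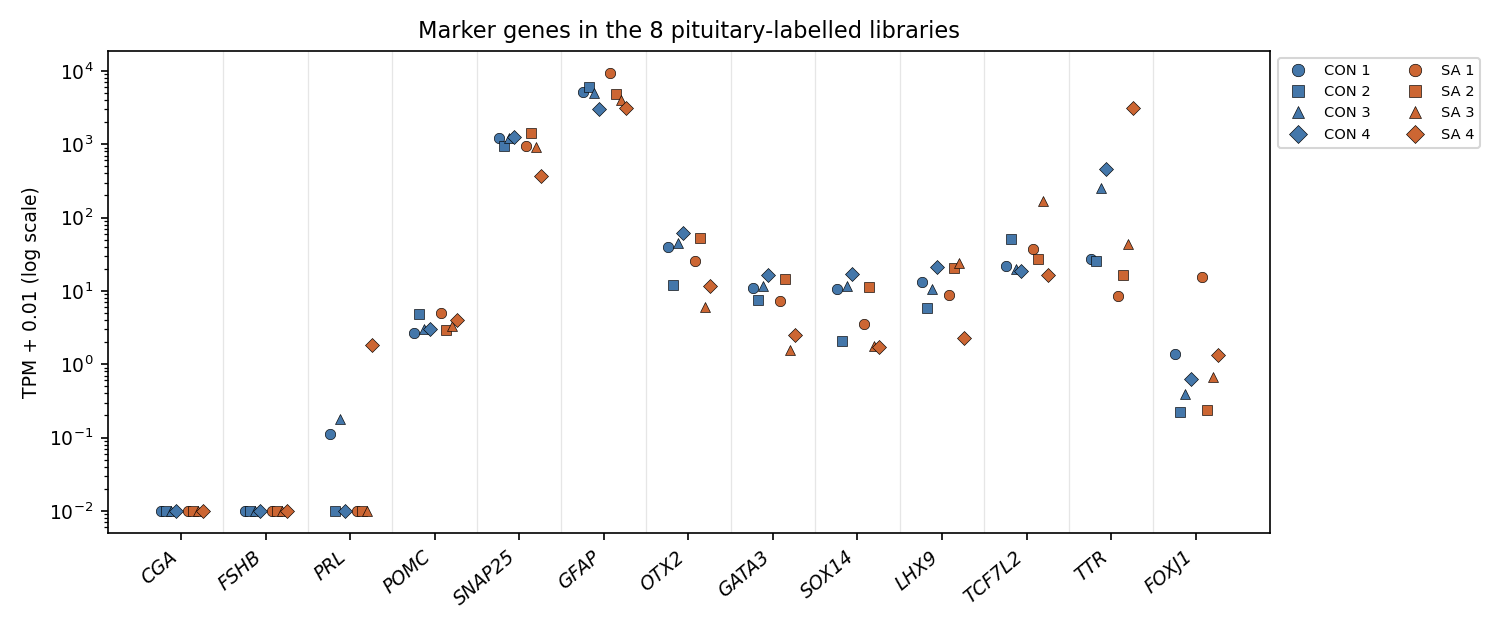
TPM plus 0.01 on a log axis for 13 marker genes, 1 point per library, with CON in blue, SA in orange and the symbol giving the replicate number. CGA and FSHB lie at 0 in all 8 libraries, and SNAP25 and GFAP lie between 372 and 9450. OTX2 and the region genes GATA3, SOX14, LHX9 and TCF7L2 spread widely within both diets.

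The region genes varied widely among animals of one diet. GATA3, which marks GABA neurons of the midbrain, was at 10.8, 7.56, 11.6 and 16.2 TPM in CON 1 to 4 and at 7.23, 14.7, 1.56 and 2.48 TPM in SA 1 to 4. SOX14, a factor of midbrain and thalamic GABA neurons, was at 10.6, 2.04, 11.5 and 17.1 TPM in CON and at 3.57, 11.4, 1.75 and 1.71 TPM in SA. CON 2 was the lowest CON library for both genes, and SA 3 and SA 4 were the lowest SA libraries. GAD2, a glutamate decarboxylase of GABA neurons, was highest in CON 4 at 239 TPM and lowest in SA 3 at 23.3 TPM, as GATA3 was. SA 3 held the highest level of TCF7L2, a thalamic factor, at 168 TPM against 16.3 to 50.8 TPM in the other 7, and of EN1, a factor of the midbrain and hindbrain border, at 12.8 TPM against 0.28 to 3.52 TPM. It also held the highest NPY, at 26.5 TPM, and PDYN, at 53.9 TPM, against at most 5.38 and 8.78 TPM elsewhere. SA 4 held the highest transthyretin gene TTR, the main secreted product of choroid plexus, at 3081 TPM against 8.38 to 465 TPM, and the highest FOLR1 and KL, other choroid plexus genes, at 7.48 and 7.11 TPM. SA 1 held the highest levels of genes of motile cilia, with FOXJ1 at 15.4 TPM against 0.21 to 1.37 TPM and PIFO at 13.4 TPM against 0 to 1.30 TPM. The part of the piece of tissue taken in the diet differences below was not tested.

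SA 4 also stood apart in its overall composition. The 13 mitochondrially encoded genes took 67.4% of its TPM and 50.6% of that of SA 3, against 36.4% and 42.1% in the other SA libraries and 40.9% to 44.3% in CON. The diet means were 42.5% ± 1.43 in CON and 49.1% ± 13.5 in SA (SD, n = 4 each), a difference of 6.70 percentage points that did not pass (exact two-sided permutation p = 0.371, adjusted over 2 tests 0.514, where the smallest p that 4 against 4 allows is 0.0286). Without SA 4 the difference was 0.599 points. SA 4 had 13088 genes at 1 TPM or more against 14254 to 15178 in the other 7, and a median log2(TPM + 1) over tested genes of 2.63 against 3.43 to 3.78. It was the lowest of the 8 libraries for 11693 of the 14472 tested genes (80.8%) and the highest for 296. The share of mitochondrial RNA moves with the differences that rest on SA 4, and its part in them was not tested.

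A further component separated the diets. The 49 rows annotated as cytosolic ribosomal RNA summed to 0.286%, 0.203%, 0.273% and 0.326% of TPM in CON 1 to 4 and to 0.123%, 0.147%, 0.0979% and 0.126% in SA 1 to 4. All SA libraries lay below all CON libraries. The strongest of these rows, a small-subunit ribosomal RNA (ENSOARG00020033574), was at 1208, 900, 1398 and 1676 TPM in CON and at 491, 534, 390 and 312 TPM in SA. Its log2 difference was −1.58 (SE 0.28, limma adjusted p = 0.277) and −1.43 without SA 4. Of the 10 such rows with a mean of 1 TPM or more, 3 had all SA values below all CON values, beside 0.85% of all genes tested. The 10 rows are not all distinct, because the 5.8S rows among them held identical values in every library. These libraries were made from RNA enriched for poly(A) tails, and the ribosomal RNA rows were looked at after their values were seen.

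**Figure D2:**
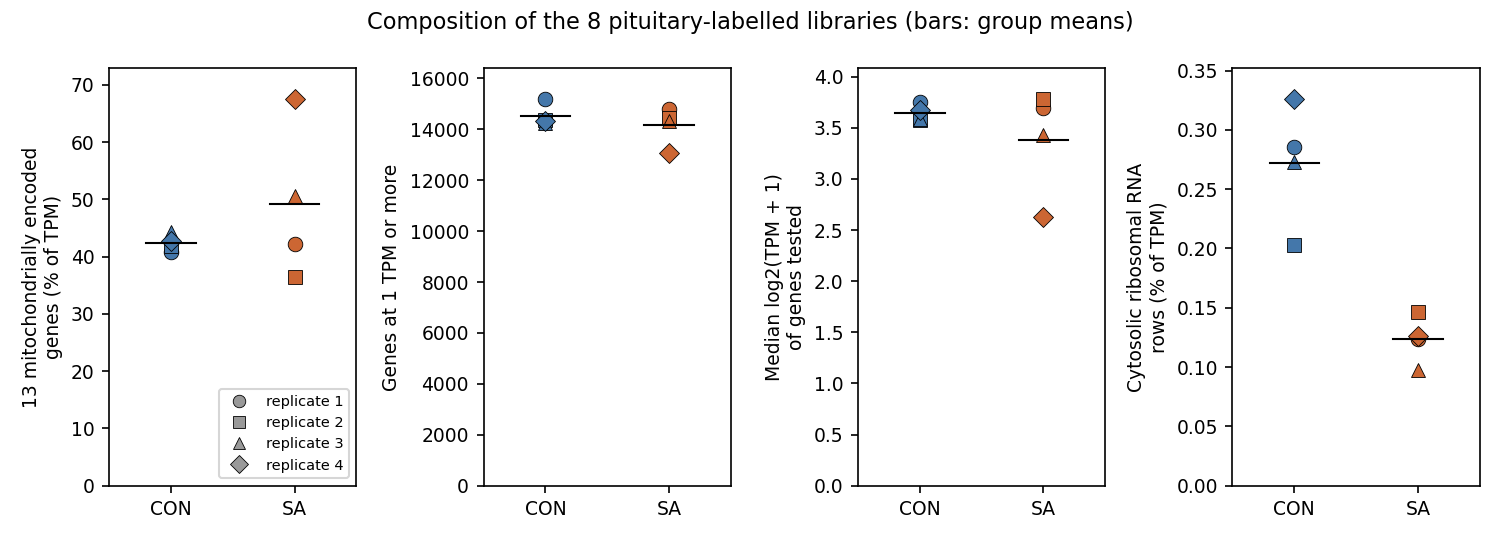
From left to right, the percent of TPM in 13 mitochondrially encoded genes, the number of genes at 1 TPM or more, the median log2(TPM + 1) of tested genes and the percent of TPM in cytosolic ribosomal RNA rows, with 1 point per library and bars for diet means. SA 4 lies at 67.4%, 13088 genes and 2.63 in the first 3 panels, and the diets are separated in the last, at 0.203% to 0.326% in CON and 0.0979% to 0.147% in SA.

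The main comparison asked which genes differed between diets. No gene passed an adjusted p of 0.05 in limma among 14472 genes tested (0% in either direction), with 218 at an unadjusted p under 0.05 (1.51%). The lowest adjusted p was 0.0626, for a gene without a symbol (ENSOARG00020019378) at 3.79, 7.20, 4.24 and 3.87 TPM in CON and 0.17, 0.74, 0.16 and 0.83 TPM in SA. Of the 218, 52 were higher in SA (0.359% of genes tested) and 166 lower (1.15%). Groups did not overlap for 47 genes with all SA values above all CON values (0.325%) and for 123 with all SA values below (0.85%). The median difference over all genes was −0.27 on the log2(TPM + 1) scale, and 15.9% of genes were higher in SA. Without SA 4 the median was −0.02, no gene passed among 14409 tested (303 at an unadjusted p under 0.05, or 2.1%, smallest adjusted p 0.148), and the non-overlapping genes became 253 higher (1.76%) and 134 lower (0.93%). When limma weighted each library by its spread, 165 genes passed. The weights were 0.0513 for SA 4, 6.67 for CON 3, 5.85 for SA 1 and 0.480 to 1.36 for the other libraries. That fit therefore rests mostly on CON 3 and SA 1. With mitochondrial and ribosomal RNA removed before scaling, the non-overlapping genes numbered 158 in each direction and 62.1% of genes were lower, against 84.1% as deposited. Lower genes were 40.2% with those library weights and 28.5% without both SA 3 and SA 4. Because none passed, the genes below are described by their values, and "higher" or "lower" states the order of diet means.

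**Figure D3:**
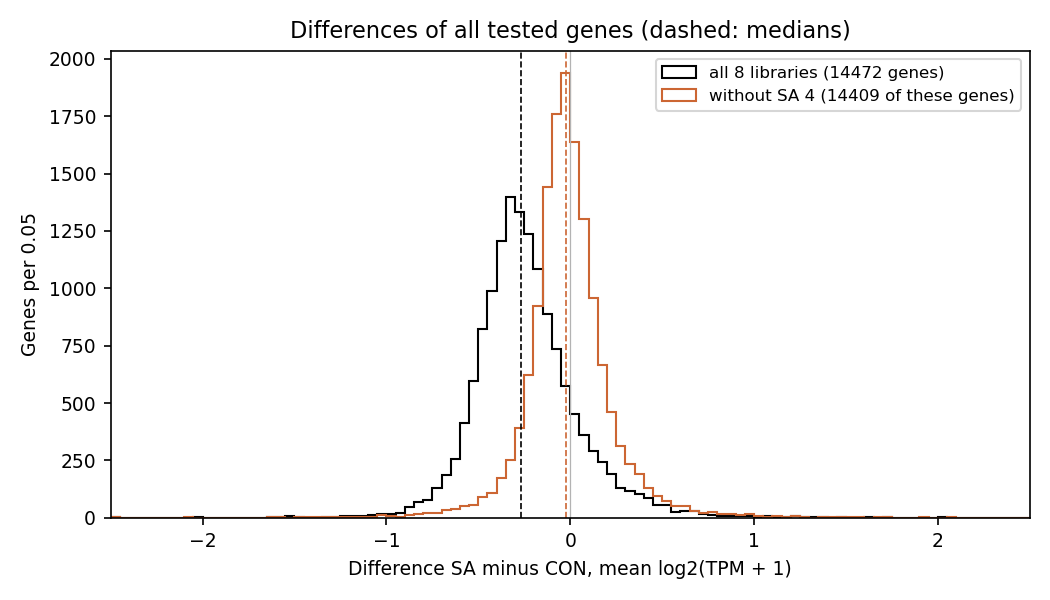
Number of genes per bin of 0.05 against the difference SA minus CON in mean log2(TPM + 1), for the 8 libraries (black) and without SA 4 (orange), with dashed medians at −0.27 and −0.02. Leaving out SA 4 moves the whole distribution toward 0.

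Among genes with a symbol and separated groups, the largest difference toward SA was that of BST1 (CD157), a surface enzyme that makes cyclic ADP-ribose from NAD. It was at 4.80, 11.6, 2.65 and 2.23 TPM in CON and at 21.4, 12.6, 15.4 and 14.0 TPM in SA, a difference of 1.61 (SE 0.39, adjusted p = 0.747) and 1.66 without SA 4. CON 2 lay just under SA 2, and the other CON values were well below. GREM1, a secreted antagonist of bone morphogenetic proteins, was at 7.54, 7.87, 6.29 and 3.34 TPM in CON and at 21.9, 17.01, 26.6 and 8.67 TPM in SA. Its difference was 1.38 (SE 0.36, adjusted p = 0.747), and 1.68 (adjusted p = 0.169) without SA 4, where it lay closest to CON. AIRE, a transcriptional regulator best known from thymic epithelium, was at 1.36, 0.96, 0.51 and 2.13 TPM in CON and at 4.12, 5.02, 6.51 and 3.31 TPM in SA. Its difference was 1.38 (SE 0.29, adjusted p = 0.544), at levels near the 1 TPM limit in CON. LGALS3 (galectin 3, a lectin of macrophages and folliculostellate cells) was at 3.55 to 4.80 TPM in CON and at 12.8, 6.41, 14.6 and 5.52 TPM in SA. SA 1 and SA 3 were far above every CON value of LGALS3, and SA 2 and SA 4 were just above them.

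VIM, the intermediate filament of endothelium, glia and mesenchyme, was at 79.3, 87.9, 102 and 109 TPM in CON and at 223, 132, 126 and 164 TPM in SA (difference 0.73, SE 0.29). NOSTRIN, which binds endothelial nitric oxide synthase, was at 6.80 to 8.96 TPM in CON and at 10.0, 9.31, 13.5 and 18.1 TPM in SA. DES, the intermediate filament of muscle cells, was at 1.55, 2.94, 3.03 and 3.44 TPM in CON and at 5.60, 7.95, 4.92 and 5.02 TPM in SA. The DES difference was 0.89 (SE 0.27, adjusted p = 0.747) and 0.94 without SA 4. WWTR1, a coactivator of the Hippo pathway, was at 3.6 to 6.86 TPM in CON and 7.34 to 10.3 TPM in SA. FOXS1, a forkhead factor, was at 0.78, 0.35, 1.29 and 0.01 TPM in CON and at 2.05, 0.99, 2.52 and 2.63 TPM in SA, so that its groups overlapped.

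Of the remaining separated higher genes with a mean of at least 5 TPM, UCP2, a carrier of the inner mitochondrial membrane, was at 22.1, 31.7, 25.8 and 37.9 TPM in CON and at 39.2, 45.1, 44.6 and 50.7 TPM in SA. Its difference was 0.62 (SE 0.28, adjusted p = 0.747) and 0.56 without SA 4. TCN2, which carries vitamin B12 in blood, was at 4.80, 5.84, 7.93 and 10.4 TPM in CON and at 10.9, 11.9, 13.4 and 14.7 TPM in SA, with CON 4 just below SA 1. RGS10, a regulator of G protein signalling abundant in microglia, was at 9.46 to 14.0 TPM in CON and 16.2 to 22.5 TPM in SA. PALMD (palmdelphin) was at 4.12 to 5.08 TPM in CON and 5.17 to 10.6 TPM in SA. Among genes chosen after their values were seen, PSME2, a proteasome activator subunit, was at 21.0 to 27.3 TPM in CON and 30.8 to 38.2 TPM in SA. TGFBR2, a receptor for TGF-beta, was at 4.38 to 7.73 TPM in CON and 8.25 to 13.1 TPM in SA. ABCG2, an efflux pump of brain capillaries, was at 21.1 to 29.5 TPM in CON and 30.5 to 42.4 TPM in SA.

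TUT4, a uridylyltransferase that acts on RNA ends, was at 7.11, 3.07, 3.01 and 3.96 TPM in CON and at 18.9, 11.1, 6.94 and 8.33 TPM in SA, with SA 3 under CON 1. C17orf67 was at 1.55, 4.53, 0.83 and 1.46 TPM in CON and 4.47 to 5.55 TPM in SA, with CON 2 above SA 4. C1orf162 was at 0.48 to 1.62 TPM in CON and 1.40 to 3.35 TPM in SA. RPS3A, a ribosomal protein whose gene has near-identical copies between which reads can be split, was at 285, 104, 93.6 and 133 TPM in CON and at 409, 141, 390 and 414 TPM in SA. Both diets held low and high RPS3A libraries.

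Among genes lower in SA, RYR3, a calcium release channel of the endoplasmic reticulum, was at 3.61, 9.22, 2.74 and 6.26 TPM in CON and at 0.80, 1.27, 0.84 and 1.46 TPM in SA. Its difference was −1.53 (SE 0.32, adjusted p = 0.544) and −1.61 without SA 4. The other ryanodine receptors had other values: RYR2 differed by −0.79 (SE 0.45) and by −0.36 without SA 4, and RYR1 by −0.19 (SE 0.36) and 0.04. UNC79, an accessory subunit of the sodium leak channel NALCN, was at 23.3, 14.1, 23.0 and 7.72 TPM in CON and at 5.32, 7.74, 4.35 and 6.15 TPM in SA, with CON 4 just under SA 2. The channel pore NALCN differed by −0.80 (SE 0.45) and by −0.34 without SA 4, and the partner subunit UNC80 by −0.41 (SE 0.40) and 0.04. EPHA7, an ephrin receptor of neurons, was at 8 to 8.90 TPM in CON and at 6.42, 4.45, 1.58 and 1.85 TPM in SA, a difference of −1.19 (SE 0.33, adjusted p = 0.747) and −1.01 without SA 4. The CON values of EPHA7 lay close together, while the SA values were spread widely, lowest in SA 3 and SA 4.

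HMCN2, which encodes the matrix protein hemicentin 2, was at 231, 146, 289 and 355 TPM in CON and at 94.6, 88.6, 106 and 54.4 TPM in SA, a difference of −1.53 (SE 0.33, adjusted p = 0.710) and −1.33 without SA 4. The order of the CON libraries, from CON 2 through CON 1 and CON 3 to CON 4, was that of the small-subunit ribosomal RNA row, and SA 4 was lowest in both. The other SA libraries had another order, with SA 3 highest for HMCN2 and SA 2 highest for the ribosomal row. The pair can be set side by side in the other groups of the series. HMCN2 averaged 108 ± 74.0 TPM in hypothalamus CON and 62.9 ± 14.1 in hypothalamus SA, where the ribosomal row averaged 664 ± 347 and 497 ± 53.7 TPM. In liver HMCN2 averaged 103 ± 49.4 TPM in CON and 616 ± 393 in SA, where the ribosomal row averaged 679 ± 296 and 3659 ± 2119 TPM (SD, n = 4 each). In tail fat HMCN2 averaged 303 ± 98.8 TPM in CON and 623 ± 258 in SA, beside 1795 ± 692 and 3923 ± 1993 TPM. The part of ribosomal RNA in the HMCN2 values was not tested. Its relative HMCN1 was at 0.32 to 1.44 TPM in CON and 0.22 to 9.08 TPM in SA.

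**Figure D4:**
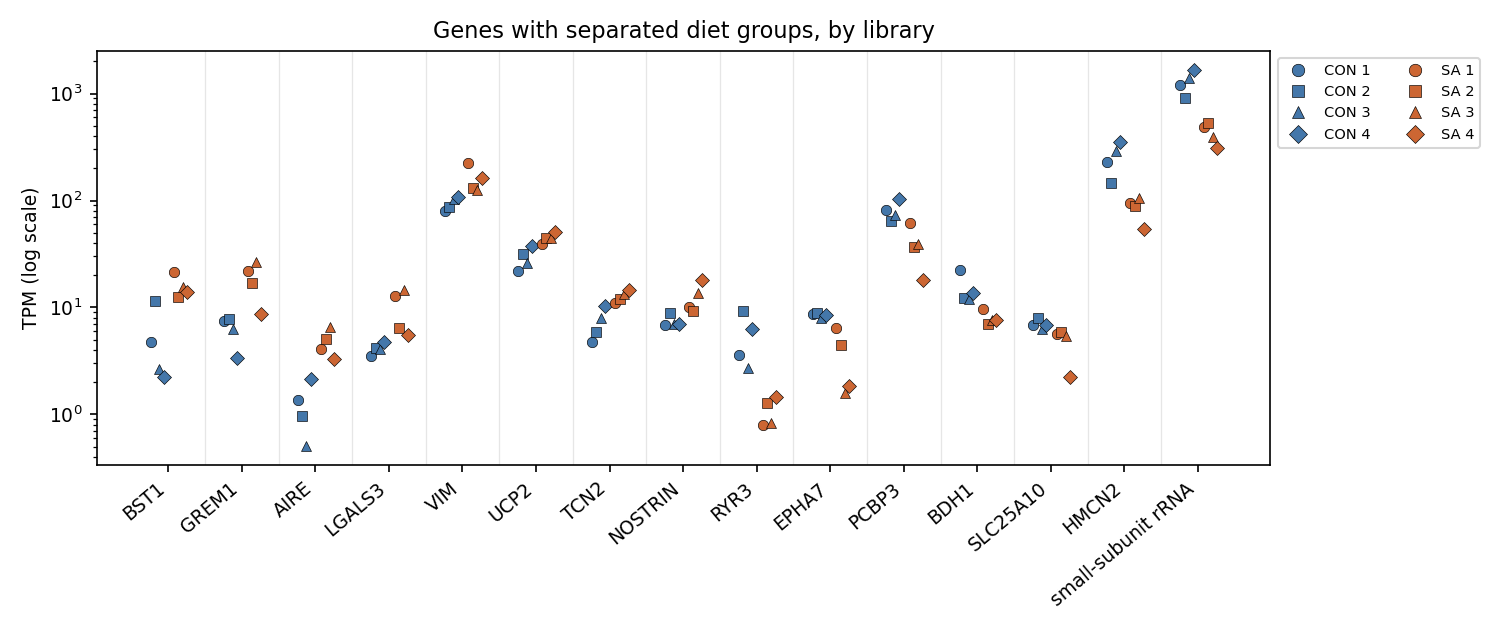
TPM on a log axis for 14 named genes and the small-subunit ribosomal RNA row ENSOARG00020033574, with 1 point per library, CON in blue, SA in orange and the symbol giving the replicate number. The 15 columns were chosen for this: in each, every SA point lies on one side of every CON point. Of all genes tested, 0.325% were separated with SA above and 0.85% with SA below.

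BDH1, the mitochondrial enzyme that interconverts ketone bodies, was at 22.2, 12.4, 11.9 and 13.5 TPM in CON and at 9.65, 7.05, 7.61 and 7.62 TPM in SA, a difference of −0.80 (SE 0.28, adjusted p = 0.747) and −0.78 without SA 4. MTFP1, a mitochondrial fission protein, was at 33.9 to 41.8 TPM in CON and at 25.2, 33.5, 25.1 and 11.3 TPM in SA. AFMID, an enzyme of tryptophan breakdown, was at 6.69, 7.60, 3.85 and 2.38 TPM in CON and at 2.81, 1.02, 1.34 and 1.02 TPM in SA, so that SA 1 lay above CON 4. AQP7, a channel for water and glycerol, was at 3.39 to 9 TPM in CON and at 2.72, 1.63, 1.38 and 4.22 TPM in SA, with overlap. Among genes chosen after their values were seen, ACOX3, a peroxisomal acyl-CoA oxidase, was at 23.1 to 32.1 TPM in CON and 11.5 to 23.0 TPM in SA. The separation of ACOX3 rests on SA 2 and CON 4, which were almost level.

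PCBP3, an RNA-binding protein, was at 80.9, 63.8, 73.7 and 103 TPM in CON and at 61.5, 36.4, 38.8 and 18.0 TPM in SA, a difference of −1.14 (SE 0.35) and −0.82 without SA 4. Metazoa_SRP, the RNA of the signal recognition particle, was at 84.1 to 115 TPM in CON and at 63.3, 28.6, 43.6 and 75.4 TPM in SA, a row that shares its sequence with many copies. MKS1, a protein of the ciliary transition zone, was at 7.60 to 12.4 TPM in CON and 2.62 to 7.09 TPM in SA. EXO5, an exonuclease, was at 6.32 to 7.74 TPM in CON and 1.84 to 6.26 TPM in SA, where SA 1 lay just below CON 1. MYO18B, an unconventional myosin, was at 2.66 to 5.11 TPM in CON and 0.88 to 1.97 TPM in SA. FAM187A was at 13.9 to 19.7 TPM in CON and at 12.1, 6.71, 4.64 and 2.73 TPM in SA. C8orf33 was at 14.0 to 18.7 TPM in CON and 5.07 to 12.1 TPM in SA. LY6D was at 3.30 to 5.35 TPM in CON and 0.23 to 3.48 TPM in SA, with overlap.

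Genes of the neurons themselves were lower in SA mainly through SA 4. All 29 tested genes of a pan-neuronal and synaptic list had lower means in SA, with a median of −0.66 beside −0.27 over all genes, and none passed. Without SA 4 the median was −0.13 beside −0.02, with 7 of 29 higher, and without both SA 3 and SA 4 it was 0.12 beside 0.09. SNAP25 was at 1220, 938, 1202 and 1259 TPM in CON and at 947, 1404, 908 and 372 TPM in SA, so that SA 2 was the highest and SA 4 the lowest of the 8. UCHL1, a neuronal ubiquitin hydrolase, was at 775 to 892 TPM in CON and at 871, 943, 548 and 132 TPM in SA. NEFL, a neurofilament, was at 647 to 752 TPM in CON and 539 to 897 TPM in SA, a difference of −0.05, or 0.05 without SA 4. The excitatory list had a median of −0.35 over 9 genes and −0.10 without SA 4. The inhibitory list had −0.53 over 10 genes and 0.06 without SA 4, where GAD2 remained at −0.74 and SLC32A1, the vesicular GABA carrier, at −0.81.

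Vessel and immune lists lay on the other side of the all-gene median with or without SA 4. In the smooth muscle and pericyte list 13 of 14 genes were higher in SA, with a median of 0.59, and without SA 4 all 14 were, with a median of 0.45. RGS5, a pericyte marker, was at 25.9, 61.1, 73.5 and 85.1 TPM in CON and at 67.7, 90.7, 106 and 148 TPM in SA. ACTA2, the smooth muscle actin, was at 13.8, 18.4, 25.8 and 42.9 TPM in CON and at 23.4, 52.7, 52.0 and 51.6 TPM in SA. CON 1 was the lowest library for RGS5, ACTA2, MYL9 and FLT1, and the diets overlapped for each. The endothelial list had 13 of 15 higher and a median of 0.38 (0.26 without SA 4), with CLDN5, a tight junction protein, at 9.04, 21.2, 17.2 and 22.8 TPM in CON and at 18.0, 24.7, 23.5 and 40.1 TPM in SA. The summed TPM of the endothelial list was 149.95 to 280.7 in CON and 235 to 344 in SA, and that of the smooth muscle and pericyte list 126 to 346 and 233 to 444, overlapping in both. With library weights the endothelial median turned to −0.09 and the smooth muscle and pericyte median fell to 0.10, beside 0.05 over all genes. Under these weights the microglia and macrophage median was 0.43 and the pituitary stem and folliculostellate one 0.70. The microglia and macrophage list had 11 of 12 higher and a median of 0.36 (0.41 without SA 4). AIF1 was at 49.4, 47.1, 34.3 and 32.2 TPM in CON and at 52.4, 45.7, 65.6 and 64.0 TPM in SA, and CSF1R was at 22.6 to 28.0 TPM and 23.9 to 37.9 TPM. The pituitary stem and folliculostellate list had 6 of 8 higher and a median of 0.58 (0.69 without SA 4), yet LHX3 and CDH1 of that list were under 0.5 TPM in every library. ALDH1A1 in that list was at 11.8 to 23.8 TPM in CON and at 34.1, 49.5, 76.1 and 5.13 TPM in SA, with SA 4 the lowest of all. Earlier results of these data had already shown these lists with higher values in SA.

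With all 8 libraries the glial lists were closer to the all-gene median. The myelin list had 17 of 18 genes lower in SA and a median of −0.35 beside −0.27 over all genes. Without SA 4 it lay farther off, at −0.22 beside −0.02 and still with 17 of 18 lower. Without both SA 3 and SA 4 the myelin median was −0.19 beside 0.09. MBP was at 7583, 10184, 8236 and 3738 TPM in CON and at 6293, 4968, 5537 and 13434 TPM in SA, where the highest and the lowest value fell in SA 4 and CON 4. MOG, a surface myelin protein, was at 365, 348, 248 and 168 TPM in CON and at 220, 203, 186 and 116 TPM in SA, and SA 4 was its lowest. The astrocyte list had a median of −0.15 (0.11 without SA 4). GFAP was at 5193, 6090, 4972 and 2998 TPM in CON and at 9450, 4859, 3971 and 3110 TPM in SA. GLUL, glutamine synthetase, was at 1201 to 1615 TPM in CON and at 890, 1233, 1188 and 689 TPM in SA. ALDH1L1, an astrocyte enzyme of folate metabolism, was at 19.4 to 25.6 TPM in CON and 12.97 to 19.1 TPM in SA. It was the 1 of 15 tested genes of this list with separated groups, beside 0.85% of all genes tested with all SA values below.

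**Figure D5:**
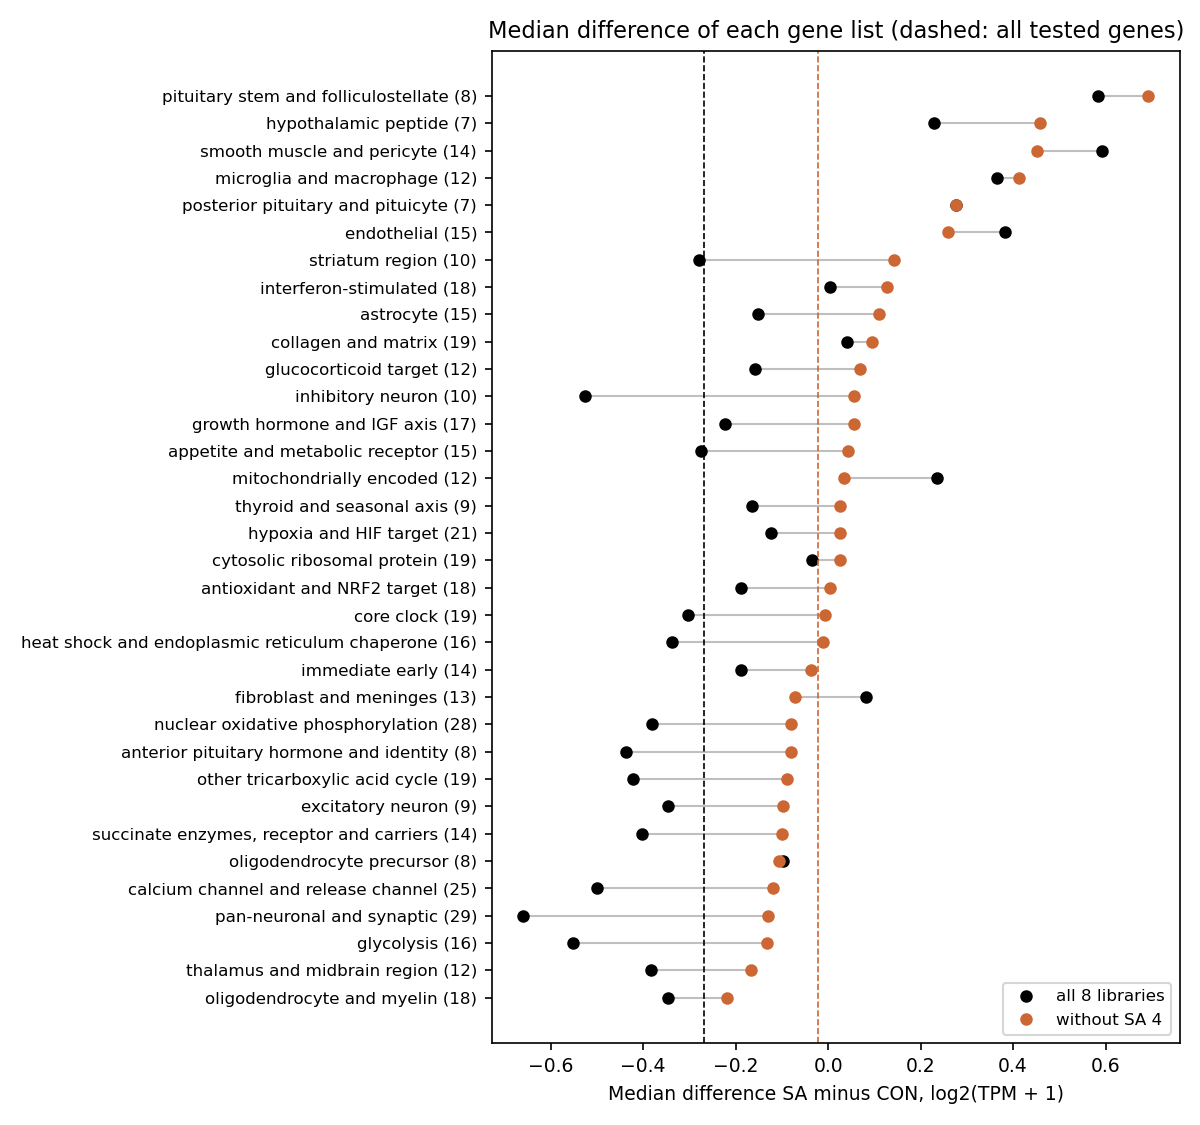
Median difference SA minus CON in log2(TPM + 1) for the 34 gene lists with at least 7 tested members (number in brackets), with all 8 libraries (black) and without SA 4 (orange), and dashed lines at the medians of all tested genes, −0.27 and −0.02. The stem, vessel and microglia lists stay to the right of both lines, and the neuronal, glycolysis and calcium channel lists shift toward 0 without SA 4.

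The genes that handle succinate itself followed the same shift. None of the 14 tested genes of the succinate list passed and all 14 were lower in SA, with a median of −0.40 beside −0.27 over all genes, and without SA 4 12 of 14 were lower with a median of −0.10 beside −0.02. SDHA, the catalytic subunit of succinate dehydrogenase, was at 119, 125, 130 and 130 TPM in CON and at 123, 143, 92.6 and 51.4 TPM in SA. SDHB, its iron-sulfur subunit, was at 118 to 144 TPM in CON and at 119, 149, 104 and 48.6 TPM in SA. The membrane anchors SDHC and SDHD were at 86.1 to 105 and 124 to 145 TPM in CON and at 41.6 to 104 and 78.8 to 133 TPM in SA. For each of the 4 subunits SA 4 was the lowest library, and the differences without it were −0.10, −0.07, −0.14 and −0.07. Of the succinyl-CoA ligase subunits, SUCLA2 differed by −0.44 (SE 0.34), SUCLG1 by −0.42 (SE 0.34) and SUCLG2 by −0.02 (SE 0.28), or by −0.10, −0.10 and 0.06 without SA 4. SUCNR1 was between 0 and 0.03 TPM in every library, too low to compare.

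SLC25A10 is the mitochondrial carrier that exchanges succinate and malate for phosphate. It was the 1 of 14 tested succinate genes with separated groups, beside 0.85% of all genes tested with all SA values below. It was at 6.82, 8.01, 6.32 and 6.93 TPM in CON and at 5.59, 5.96, 5.45 and 2.24 TPM in SA, a difference of −0.52 (SE 0.29, adjusted p = 0.747) and −0.26 without SA 4. The plasma membrane carriers for dicarboxylates and citrate, SLC13A3 and SLC13A5, differed by −0.62 (SE 0.30) and −0.66 (SE 0.29), or by −0.43 and −0.53 without SA 4. SLC13A5 was at 11.2, 7.07, 9.98 and 12.2 TPM in CON and at 6.72, 8.70, 4.75 and 4.33 TPM in SA, with CON 2 below SA 2. These 3 carriers were named after their values were seen.

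HIF1A was at 48.1, 51.4, 45.1 and 44.5 TPM in CON and at 61.4, 52.5, 48.7 and 20.9 TPM in SA, a difference of −0.14 (SE 0.34) and 0.19 without SA 4. Of 21 tested hypoxia and HIF target genes 6 were higher in SA, with a median of −0.12, and 11 of 21 without SA 4, with a median of 0.03. ADM, the peptide adrenomedullin, was the 1 gene of those 21 with separated groups, at 0.91 to 1.58 TPM in CON and 1.65 to 2.37 TPM in SA. Over all genes tested, 0.325% had all SA values above. NDRG1 was at 129 to 313 TPM in CON and 99.3 to 182 TPM in SA.

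The other tricarboxylic acid cycle genes were lower in 19 of 19 (median −0.42, −0.09 without SA 4), nuclear genes of oxidative phosphorylation in 28 of 28 (−0.38 and −0.08) and glycolysis genes in 14 of 16 (−0.55 and −0.13). All 3 medians turned without both SA 3 and SA 4, to 0.06, 0.05 and 0.07, beside 0.09 over all genes. MDH1, the cytosolic malate dehydrogenase, was at 521 to 648 TPM in CON and at 498, 711, 462 and 175 TPM in SA. GAPDH was at 1614 to 2234 TPM in CON and at 1747, 2291, 1332 and 496 TPM in SA. In both genes SA 2 was the highest and SA 4 the lowest of the 8. The mitochondrially encoded genes lay on the other side, with 10 of 12 higher and a median of 0.24 (0.03 without SA 4). COX1, a subunit of complex IV, ranged from 44031 to 58337 TPM in CON and was 53730.2, 50684, 69215 and 85223 TPM in SA 1 to 4.

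Lists tied to the rhythm of feeding and to hormone signals had few genes apart from the all-gene shift. All 19 core clock genes were lower in SA (median −0.30), and without SA 4 9 of 19 were higher with a median of −0.01. PER3, a repressor of the clock, was at 38.1 to 54.5 TPM in CON and 37.1 to 53.6 TPM in SA, and NR1D1 was at 13.2 to 31.7 TPM and 7.35 to 29.9 TPM. Glucocorticoid targets had a median of −0.16 (0.07 without SA 4), with FKBP5 at 46.4 to 75.4 TPM in CON and 40.9 to 81.2 TPM in SA. The growth hormone and IGF axis list had −0.22 (0.06), the thyroid and seasonal list −0.16 (0.03) and the appetite receptor list −0.28 (0.04). Immediate early genes had −0.19 (−0.04), and IER2 alone ran from 15.9 to 225 TPM in CON and from 15.3 to 240 TPM in SA. In these 6 lists no gene had separated groups in the 8 libraries, where 0.325% of all genes tested were separated higher and 0.85% lower.

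The other cell type and region lists had no gene past the test either. The 8 tested anterior pituitary genes had a median of −0.44 (−0.08 without SA 4), the 7 posterior pituitary and pituicyte genes 0.28 (0.28) and the 7 hypothalamic peptide genes 0.23 (0.46). Thalamus and midbrain genes had −0.38 (−0.17 without SA 4), striatum genes −0.28 (0.14), cortex and hippocampus genes −0.19 (0.02) and cerebellum and hindbrain genes −0.77 (−0.47). With no filter on low values the cerebellum and hindbrain median, which rests on 6 of 14 genes with a row, was 0.04. Oligodendrocyte precursor genes had −0.10 (−0.11), fibroblast and meninges genes 0.08 (−0.07), choroid plexus and ependyma genes −0.38 (−0.35), and the pair of lymphocyte and blood genes tested 0.14 (0.45). The choroid plexus and ependyma median rests on 4 of 13 genes with a row and was 0.20 with no filter.

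The remaining lists add little separation. Calcium channel genes were lower in 23 of 25, with a median of −0.50 and −0.12 without SA 4. RYR3 was the 1 of those 25 with separated groups, beside 0.85% of all genes tested with all SA values below. Collagen and matrix genes had 10 of 19 higher and a median of 0.04, with GREM1 and HMCN2 at its ends. Antioxidant genes had −0.19 and 0.00 without SA 4, chaperones −0.34 and −0.01, interferon-stimulated genes 0.00 and 0.13. Cytosolic ribosomal protein genes had a median of −0.04 (0.03 without SA 4), and all 19 lay above the all-gene median.

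Whether the diet difference was other than that in the hypothalamus-labelled libraries was tested as the difference of the differences over 15152 genes. None passed in limma (0%), 230 had an unadjusted p under 0.05 (1.52%), and the smallest adjusted p was 0.823. Over 14126 genes the hypothalamus-labelled libraries had a median difference of 0.02. Some genes described above had a difference of the same sign there, among them RPS3A at 1.26 (SE 0.44), BST1 at 0.67 (SE 0.32) and VIM at 0.49 (SE 0.16). So did BDH1 at −0.43 (SE 0.19), AFMID at −0.65 (SE 0.31) and PCBP3 at −0.68 (SE 0.37). Others had the opposite sign there, among them TUT4 at −0.13, NOSTRIN at −0.18, EPHA7 at 0.21 and EXO5 at 0.31. AIRE had a difference of differences of 1.47 (SE 0.33) and was at a mean of 0.2 TPM in hypothalamus CON and 0.113 TPM in hypothalamus SA. GREM1 had 1.20 (SE 0.40), with hypothalamus means of 19.5 and 22.2 TPM. UNC79 had −1.47 (SE 0.42), with hypothalamus means of 6.29 and 7.49 TPM. PPM1E, a protein phosphatase, had −2.23 (SE 0.58) and was at 52.5, 26.3, 31.8 and 29.9 TPM in CON and 35.5, 28.1, 29.0 and 5.15 TPM in SA, beside hypothalamus means of 7.89 and 24.0 TPM. Its diet difference in the pituitary-labelled libraries was −0.73, or −0.14 without SA 4. KCNJ6, a potassium channel, had −1.59, EPHA3 −1.31 and LY6D −1.72, and OTOS had 0.96 and FOXS1 1.29. The pituitary-labelled difference of LY6D was −1.17, or −0.83 without SA 4. CATSPERB had 2.22, but was at or under 0.03 TPM in 6 of the 8 pituitary-labelled libraries and at 2.58 and 2.62 TPM in SA 1 and SA 3. The endothelial list had a median of 0.38 here and −0.11 in the hypothalamus-labelled libraries, with 1 of 15 genes at an unadjusted p under 0.05 for the difference. The smooth muscle and pericyte list had 0.59 and 0.02, the microglia and macrophage list 0.36 and 0.38 (12 of 13 higher in the hypothalamus-labelled libraries) and the myelin list −0.35 and −0.85 (0 of 18 higher). No gene of these lists passed for the difference.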

How the data were processed

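The deposited table holds TPM per gene for 32 libraries (30722 genes, 13350 of them without a name) and 8 group means, which were not used. Per the labels' protocols the libraries were stranded and enriched for poly(A) RNA. The submitters' processing notes name the tools fastp, RSEM and HISAT2. The tool versions, annotation, build and counting by strand were not given in the sources used here, so overlapping genes and near-identical copies cannot be told apart. TPM keeps no depth, so no interval for counting error is given. TPM values in the 8 libraries summed to 962321 to 980566.

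From the deposited TPM, log2(TPM + 1) was compared with limma 3.58.1 (R 4.3.3; trend and robust) over genes that reached 1 TPM in 4 or more of these 8 libraries, with Benjamini-Hochberg adjustment over all genes tested and a threshold of 0.05. Differences are SA minus CON on that scale, which understates the change of low genes. Shares of TPM and gene numbers were compared by exact two-sided permutation tests over 4 against 4 libraries. The scripts were tested on simulated data. Replicates are sheep by the sampling text, and the labels do not say that equal numbers in different tissues are 1 animal.

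The genes named are those with a symbol and (a) the 10 smallest p-values per direction, (b) the 10 largest differences per direction among separated genes with a mean of at least 5 TPM, (c) the 4 tested members of highest mean in each of 38 gene lists, (d) a panel of succinate, marker and earlier reported genes, and (e) the 5 smallest p-values per direction in the comparison with hypothalamus-labelled libraries. Not every gene under (c) is named in the text, and which of them are was a further choice. Any gene named outside these rules was picked with its values in view, as were the identity, region and ribosomal RNA genes shown by library. The comparison and its lists were chosen with earlier results of these data known. The alternatives were another pseudocount, other filters, quantile normalization, median centring, removal of mitochondrial and ribosomal RNA, library weights, no trend, a replicate block, a joint fit with the hypothalamus-labelled libraries and leaving out libraries. Names came from the deposited table. Of the named genes, 111 were looked up in RefSeq and 105 matched by symbol. Of these, 13 overlap another protein-coding gene there, among them LGALS3 (WDHD1), PCBP3, SDHC, FOXS1, MOG and AIF1. Python 3.11.15, pandas 2.3.3 and matplotlib 3.10.9 were used for summaries and figures.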

Additional observations from a re-analysis of the deposited data

Results flagged for a closer look

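In 226 groups of 4 libraries (113 measures in each diet), 27 had 1 library far from the other 3 by Dixon's rule at the 95% level. The rule marks about 5% of groups by chance only where values are normally distributed and measures were not picked by their values. Some of these genes were picked with their values in view, and some lay at levels too low to compare. The 27 can therefore not be set against that 5%. SA 4 was the far library in 6 of them.

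CON 1 had 15178 genes at 1 TPM or more, against 14254 to 14370 in the other CON libraries. It was also high for BDH1 at 22.2 TPM against 11.9 to 13.5, for RYR1 at 4.82 TPM against 1.06 to 1.46 and for SDHD at 145 TPM against 124 to 127, and low for FLT1 at 19.3 TPM against 39.6 to 43.7. CON 2 was high for TCF7L2 at 50.8 TPM, POMC at 4.89 TPM, NPY at 4.32 TPM and NOSTRIN at 8.96 TPM.

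SA 4 was high for TTR at 3081 TPM where its diet group otherwise held 8.38 to 43.3, MBP at 13434 TPM against 4968 to 6293, KL at 7.11 TPM and PRL at 1.79 TPM, and low for SLC25A10 at 2.24 TPM against 5.45 to 5.96. SA 3 was high for TCF7L2 at 168 TPM, PDYN at 53.9 TPM and RGS10 at 22.5 TPM. SA 1 was high for FOXJ1 at 15.4 TPM and PIFO at 13.4 TPM and low for ACTA2 at 23.4 TPM, and SA 2 was low for RPS3A at 141 TPM.

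Some genes stood apart at levels too low to compare. SUCNR1 was at 0.02 TPM in CON 2 and 0.03 TPM in SA 4 and at 0 elsewhere, and TBX19 was at 0.02 TPM in CON 3 and 0.03 TPM in SA 1. NR5A1 was at 0.04 TPM in CON 4, and CDH1 at 0.27 TPM in CON 4.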

How the results depend on the processing

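No gene passed for the diet under another pseudocount, no filter, a mean of at least 5 TPM, quantile normalization, median centring, removal of mitochondrial and ribosomal RNA, no trend, or the hypothalamus-labelled libraries in the same fit. Library weights, under which the fit rests mostly on CON 3 and SA 1, gave 165 genes (127 higher, 38 lower). Leaving out 1 library gave 0 to 1 genes. Without CON 2, CON 3, SA 2 or SA 3 in turn a different gene passed each time, always one without a symbol. Leaving out both SA 3 and SA 4, chosen after seeing the data, gave 3. The cause was not tested. Separated genes numbered 74 higher and 228 lower with no filter, 24 and 74 at a mean of at least 5 TPM, 158 and 158 with mitochondrial and ribosomal RNA removed, and 1419 and 223 without SA 3 and SA 4. Leaving out 1 library gave 62 to 253 higher and 134 to 1107 lower, where fewer libraries make separation easier. The median difference was −0.39 to −0.02 when 1 library was left out, −0.02 under quantile normalization and 0.09 without SA 3 and SA 4, and the split of lower genes moved from 84.1% to 54.1% under quantile normalization, 62.1% with mitochondrial and ribosomal RNA removed 55.7% without SA 4, 50.3% under median centring, 40.2% with library weights (median 0.05) and 28.5% without SA 3 and SA 4. The mitochondrial share differed by 0.599 to 10.9 points when 1 library was left out. Of 46 genes followed, 4 changed sign under quantile normalization, 4 under median centring and 3 with mitochondrial and ribosomal RNA removed. With library weights 5 did, and without SA 3 and SA 4 8 of 45 did. None of them was among the 33 named for their small p or large difference. Those 33 were chosen by their values in these same libraries, so their signs could hardly turn. Of 38 list medians, 11 changed sign under quantile normalization, 10 under median centring and 14 with library weights. Without SA 4 12 changed sign, without SA 3 and SA 4 23 did, and with no filter 2 did. Those 2 were the cerebellum and hindbrain median, at 0.04, and the choroid plexus and ependyma one, at 0.20. With no filter the anterior pituitary median was −0.01 and the inhibitory one −0.10, which kept their sign. A replicate block gave 0 genes (259 at an unadjusted p under 0.05). Equal numbers correlated at 0.05, −0.17, −0.01 and −0.22 between diets, and unequal numbers at −0.21 to 0.35. These values showed no pairing by number, but so few libraries cannot settle whether there was one. The comparison with hypothalamus-labelled libraries gave 0 genes in every alternative run. TPM carries no depth, so what depth limits is unknown here.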
